A study of Rattus norvegicus with 12 samples.

Results

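Uterine RNA of ovariectomized Sprague Dawley rats on a soy protein diet with estradiol (SPI-E2) was set against that of ovariectomized rats on a casein diet without hormone (CAS), so diet and hormone changed together in this comparison. It used 6 of the 12 libraries of the study, 3 of each group. Its members were 9818 of 16493 genes, namely those that reached 1 FPKM in 3 or more of these 6 libraries, where FPKM counts the fragments of a transcript relative to its length and to the mapped reads of the library. Both groups ate a purified AIN-93G diet with corn oil and lost their ovaries on postnatal day (PND) 50, and the uterus was taken on PND65. SPI-E2 rats had soy protein isolate as the protein and 5 μg/kg/d of 17β-estradiol (E2) from a minipump under the skin. CAS rats had casein and the polyethylene glycol vehicle. The diets began on PND30 according to the methods, whereas the specification table of the study gives 14 days of feeding, so how long they were eaten is uncertain. A library was a pool of equal parts of RNA from 2 uteri, and 6 uteri stood behind each group, so the errors below are those between pools. Libraries of a group shared their lanes, so effects of lane and of group cannot be told apart. The remaining groups, CAS-E2 (casein with E2) and SPI (soy without it), are quoted where they bear on a gene.

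Estradiol enters uterine cells and binds the estrogen receptor Esr1, which then acts on genes directly or through other transcription factors. In the rodent uterus E2 makes the luminal and glandular epithelium grow and secrete, draws in water and leukocytes, and acts on the epithelium partly by way of growth factors from the stroma. Ovariectomy removes the main source of the hormone. Soy protein isolate carries isoflavones such as genistein and daidzein, plant compounds that bind estrogen receptors.

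The 6 libraries rested on 6353210 to 9862180 mapped reads, as implied by the deposited coverage and FPKM. Their genes with an FPKM of at least 1 numbered 9225 to 9671. The uterine origin of the tissue was visible in all 6 libraries. The smooth muscle genes Myh11 and Actg2 had at least 190 and 357 FPKM, the stromal gene Dcn at least 70.5 and the epithelial gene Epcam at least 44.1. Of genes of other organs, Ckm and Myh4 of skeletal muscle and Fshr and Zp3 of the ovary had at most 1.09 FPKM. Adipoq of fat and Alb of liver were well above that and are described with their cell types below. The pool SPI-E2 1 stood apart from SPI-E2 2 and SPI-E2 3. Its log2(FPKM + 1) values had correlations across genes of 0.905 to 0.931 with the CAS pools and of 0.913 and 0.92 with its own group, against 0.967 between SPI-E2 2 and SPI-E2 3 and 0.957 to 0.973 among the CAS pools. Genes are not independent replicates, so these values only describe the pools. The labels give no difference between SPI-E2 1 and its group. In the study's read statistics, pool 1 of both groups had the fewest over-represented sequences and the highest alignment rate, and pools 2 and 3 of the 2 groups resembled each other by number as well. The implied mapped reads were also alike by number, with 7436921, 9862180 and 6353210 in CAS and 7411217, 9722616 and 6876617 in SPI-E2. CAS 1 had read statistics like those of SPI-E2 1 but did not stand apart from its group. The part of library quality in the position of SPI-E2 1 was not tested. Results are therefore given for each pool, and many list counts are also given without single libraries that moved them.

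Of the 9818 genes, 676 (6.89%) were higher and 399 (4.06%) were lower in SPI-E2 than in CAS, together 1075 (10.9%). These shares stand beside the list counts below. The lists were chosen with earlier results of these data known, so a count above these shares is no independent result. Genes were called higher or lower when limma gave an adjusted p under 0.05 and the change was at least 2-fold on the log2(FPKM + 1) scale, on which all fold changes below are given. Adding 1 makes the change of weakly expressed genes look smaller than it was. The adjusted p alone was passed by 2957 genes (30.1%). Each SPI-E2 pool lay above every CAS pool in 1878 genes (19.1%) and below every CAS pool in 2435 genes (24.8%). Over all genes tested the log2 fold change had a median of -0.04. A gene could pass the filter through 1 group alone, and each pool of that group then lay above every pool of the other, though not always far enough for a call. Of 164 genes with no CAS pool at 1 FPKM 131 were higher, and of 162 genes with no SPI-E2 pool at that level 41 were lower. Of the other 9492 genes 545 were higher and 358 lower. Genes that passed through 1 group alone were also among the calls of many lists below. Without SPI-E2 1 there were 978 higher (9.96%) and 739 lower genes (7.53%), without SPI-E2 2 there were 495 and 296, and without SPI-E2 3 there were 529 and 180. The plot of group means places the higher genes over the whole range of levels in CAS, down to genes near 0.

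**Figure D1:**
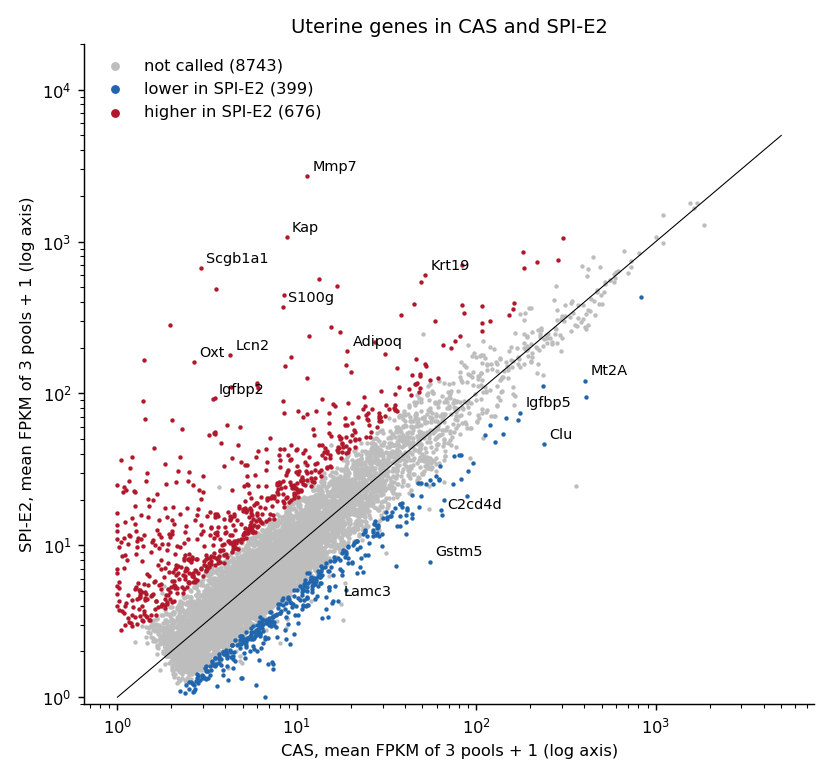
Mean FPKM + 1 of the 3 SPI-E2 pools (vertical, log axis) against that of the 3 CAS pools (horizontal, log axis) for 9818 genes, with 676 higher genes in red, 399 lower genes in blue and the rest in grey. Mmp7 and Scgb1a1 lie far above the line of equal levels, and Clu, Gstm5 and Mt2A below it.

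Mmp7 and Scgb1a1 had the steepest rises. Mmp7, the epithelial metalloprotease matrilysin (rn4 chromosome 8, 4526018 to 4533730), had 15.4, 5.55 and 10.2 FPKM in CAS pools 1, 2 and 3 and 796, 3670 and 3605 in the SPI-E2 pools in the same order, which is the order used below. On the log2 scale Mmp7 rose by 7.69 ± 0.76 (SE, adjusted p = 8.3e-05, limma). Scgb1a1, the secretoglobin known as uteroglobin, went from 2.58, 0.778 and 2.42 FPKM to 159, 1029 and 811 (7.52 ± 0.61). Both genes were above all CAS pools in each SPI-E2 pool, and SPI-E2 1 was the lowest of its group. Kap, first described as an androgen-regulated gene of the kidney, reached 342, 1058 and 1803 FPKM from at most 14.7 (6.84 ± 0.63). Cuzd1, an estrogen-regulated uterine gene, rose from at most 4.38 FPKM to 173, 568 and 717 (6.99 ± 0.57), and Lipf, a lipase best known from the stomach, from at most 0.929 to 50.1, 287 and 161 (6.63 ± 0.89). Olfm4, a secreted glycoprotein of epithelia, had less than 1 FPKM in all CAS pools and 37.7, 108 and 117 in SPI-E2 (5.84 ± 0.36). Among the 25 largest rises were also Dmbt1 (5.34 ± 0.53), a mucosal scavenger protein, the gap junction protein Gjb2 (4.49 ± 0.47), the folate receptor Folr1 (4.48 ± 0.44) and Igfbp2 (4.57 ± 0.45), a binding protein for insulin-like growth factors. None of these 10 genes lost its call when any 1 library was left out.

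The 25 largest falls were smaller in size. Gstm5, a glutathione S-transferase, had 55.7, 57.8 and 48.3 FPKM in CAS and 10.8, 6.27 and 3.36 in SPI-E2 (log2 fold change -2.93 ± 0.27, adjusted p = 6.5e-05, limma). Clu, the secreted chaperone clusterin (rn4 chromosome 15, 45365779 to 45405314), went from 225, 241 and 245 FPKM to 85.8, 28.3 and 21.4, and its mean was 5.24-fold lower (-2.63 ± 0.40). Lamc3, a laminin chain, fell from 15.995, 15.7 and 16.1 FPKM to 8.38, 0.882 and 0.577 (-2.48 ± 0.50). In Clu and Lamc3 the pool SPI-E2 1 lay well above SPI-E2 2 and SPI-E2 3 and yet below every CAS pool. The receptor Lrp2 (megalin, -2.23 ± 0.30), the prostaglandin E2 receptor Ptger3 (-2.27 ± 0.54), the stem cell marker Lgr5 (-2.14 ± 0.37), the potassium channel Kcna2 (-2.14 ± 0.40), the guidance molecule Ntn1 (-2.12 ± 0.32) and Gulo (-2.40 ± 0.43), which makes vitamin C in rats, behaved alike and kept their calls without any 1 library. C2cd4d, whose change was the largest in size at -3.22 ± 0.80, had 62.1, 63.3 and 64.1 FPKM in CAS but 41.1, 2.35 and 1.33 in SPI-E2, and its adjusted p from limma was 0.055 without SPI-E2 2 and 0.059 without SPI-E2 3. Mln, a symbol named after motilin with an annotated transcript of only 206 bases, had 4.15, 3.13 and 9.72 FPKM in CAS. It was listed at 0 in all SPI-E2 pools, and also in all CAS-E2 and SPI pools.

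**Figure D2:**
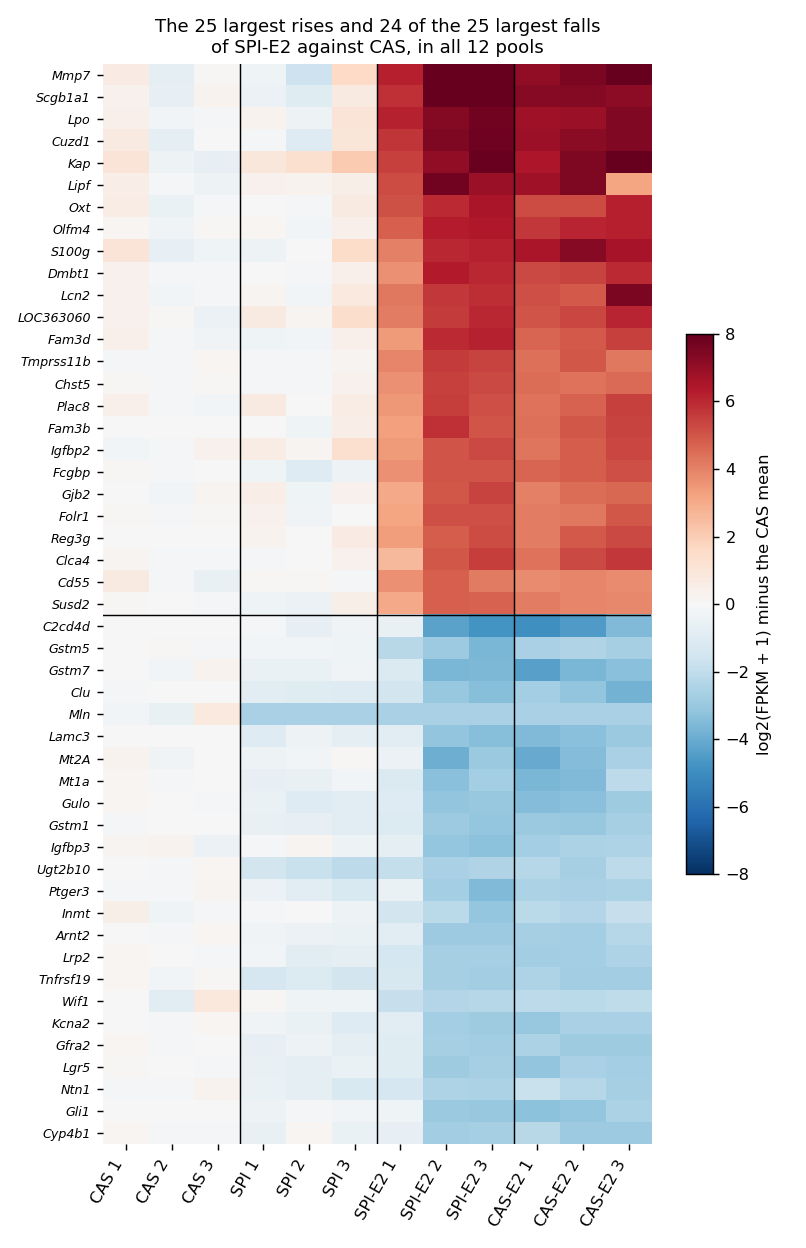
Colour map of the 25 largest rises (top) and 24 of the 25 largest falls (bottom) in all 12 pools, as log2(FPKM + 1) minus the CAS mean of each gene, with colours saturating at 8. Columns run CAS, SPI, SPI-E2 and CAS-E2, and SPI-E2 1 is paler than SPI-E2 2 and SPI-E2 3 in nearly all rows.

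How far SPI-E2 1 had moved could be measured with genes chosen without it. Over the 978 genes that were higher without this pool, its FPKM lay at a median of 25.8% of the distance from the CAS mean to the mean of SPI-E2 2 and SPI-E2 3 (quartiles 17.9% and 34.3%), and 92.9% of those genes had it under 50%. Over the 739 lower genes it lay at 47.3% (quartiles 32.1% and 62.1%), and 55.5% had it under 50%. These positions are in FPKM, whereas the calls use log2(FPKM + 1). That log scale stretches low levels, so it places the pool nearer to its group in rises and nearer to CAS in falls. Medians of rises and of falls are therefore not comparable with each other. The same measure gave 156% and 113% for SPI-E2 2, and 144% and 127% for SPI-E2 3. Among higher genes the median was 13.6% over 6 mucin genes, 15.0% over 17 genes of simple epithelium, 32.1% over 12 classical E2 targets and 44.3% over the 3 genes of the oxytocin system. Among lower genes it was 41.3% over 10 hedgehog genes and 62.7% over 12 uterine transcription factors. Differences between these lists were not tested. Lif, a cytokine that E2 induces in uterine glands, was an exception to the pale pool, with 0.331, 0.748 and 1.16 FPKM in CAS and 8.96, 10.4 and 11.4 in SPI-E2 (2.71 ± 0.19, adjusted p = 1.3e-05, limma).

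**Figure D3:**
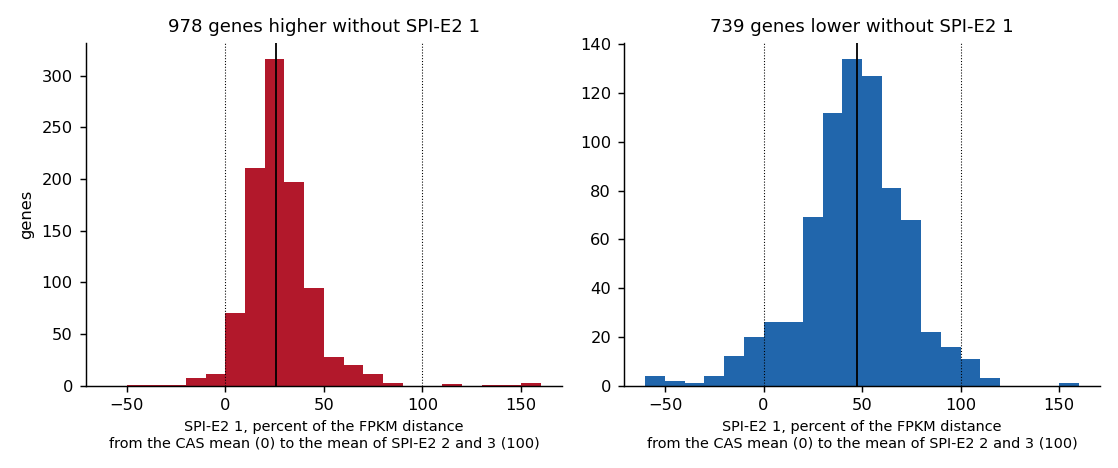
Histograms of genes by where the FPKM of SPI-E2 1 lay between the CAS mean (0 percent) and the mean of SPI-E2 2 and SPI-E2 3 (100 percent), for 978 higher (left) and 739 lower genes (right) called without that pool. Values beyond the axis are in the end bars, and black lines mark the medians, 25.8% and 47.3%.

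Of 9 receptor genes tested none was called in either direction. Esr1 had 39.2, 39.9 and 40.7 FPKM in CAS and 31.4, 25.5 and 15.0 in SPI-E2, a log2 fold change of -0.77 ± 0.25 that passed the adjusted p (0.036, limma) but not the 2-fold limit. Pgr, the progesterone receptor, had 21.0, 23.2 and 23.4 FPKM against 22.2, 26.8 and 18.6 (-0.01 ± 0.29), and its pools overlapped. Esr2 had at most 0.201 FPKM in these 6 pools and was not tested. Without SPI-E2 1, 1 receptor gene was higher and 2 were lower, and 1 was lower without CAS 3.

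Classical E2 targets formed one of the lists with the most calls, 10 higher and 0 lower of 16 tested, with a median log2 fold change of 1.59 against -0.04 over all genes. No CAS pool reached 1 FPKM in 2 of the higher genes, and 8 of the other 14 genes were higher. S100g, the vitamin D-dependent calcium binder calbindin-D9k (rn4 chromosome X, 52446817 to 52449342), had 13.9, 3.50 and 4.66 FPKM in CAS and 116, 482 and 513 in SPI-E2 (5.41 ± 0.63). In CAS-E2 it had 679, 1149 and 687 FPKM. Lcn2, a lipocalin that binds bacterial iron carriers, rose from at most 4.40 FPKM to 76.7, 207 and 251 (5.25 ± 0.61). Inhbb, the activin and inhibin βB subunit, went from at most 4.71 FPKM to 15.1, 36.2 and 31.0 (2.35 ± 0.26), and the gap junction gene Gja1 of the myometrium from at most 8.22 to 15.7, 27.4 and 31.0 (1.68 ± 0.23). Padi1, which converts arginine in proteins to citrulline, rose by 2.81 ± 0.39. Other genes known for this response passed the adjusted p but not the 2-fold limit, Igf1 (0.92 ± 0.30) and Wnt4 (0.91 ± 0.20), and both passed it without SPI-E2 1. Ltf had at most 0.0568 FPKM and C3 was listed at 0 in all 6 pools, so neither was tested. Left-out libraries moved the count of this list between 8 and 12.

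Oxytocin is a peptide hormone that contracts the uterus, and its gene stood out in SPI-E2. Oxt (rn4 chromosome 3, 118194219 to 118195058) had 2.85, 0.767 and 1.43 FPKM in CAS and 87.7, 157 and 235 in SPI-E2 (5.87 ± 0.40, adjusted p = 1.3e-05, limma). All SPI-E2 pools were more than an order of magnitude above CAS, and CAS-E2 had 93.2, 93.0 and 189. Avp, its neighbour gene for vasopressin, reached 7.05, 22.2 and 21.9 FPKM from at most 0.398 (3.71 ± 0.40) and so passed the filter through SPI-E2 alone. Oxtr, the oxytocin receptor, went from 3.90, 1.47 and 2.12 FPKM to 11.9, 19.4 and 11.8 (2.16 ± 0.54), with an adjusted p from limma of 0.051 without CAS 2 and 0.051 without SPI-E2 2. The remaining tested genes of this system, Lnpep and Avpr1a, were not called. The 250 bases before the Oxt start are shown because E2 responsive elements of this gene are well known. They come from RefSeq (GRCr8, chr3:138235504-138235753, plus strand), read 5′ to 3′, with capitals on each GGTCA, the half-site of an estrogen response element, or its reverse complement TGACC:
Oxt: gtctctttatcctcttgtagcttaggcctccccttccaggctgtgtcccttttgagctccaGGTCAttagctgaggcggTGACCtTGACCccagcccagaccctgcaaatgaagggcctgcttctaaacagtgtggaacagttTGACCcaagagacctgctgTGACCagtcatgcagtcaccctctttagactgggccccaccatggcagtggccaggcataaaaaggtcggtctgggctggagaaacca
The window holds 5 such letters, at -189, -171, -165, -107 and -88 from the start, and the pair at -171 and -165 is 1 base apart. GGTCA on either strand was in 35.4% of all 33469 promoter windows of this length, in 33.4% of those of genes tested, in 37.2% of those of 479 higher genes and in 33.0% of those of 282 lower genes. The whole palindrome, GGTCA and TGACC with any 3 bases between them, was in none of the windows of called genes and in 8 of all windows.

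**Figure D4:**
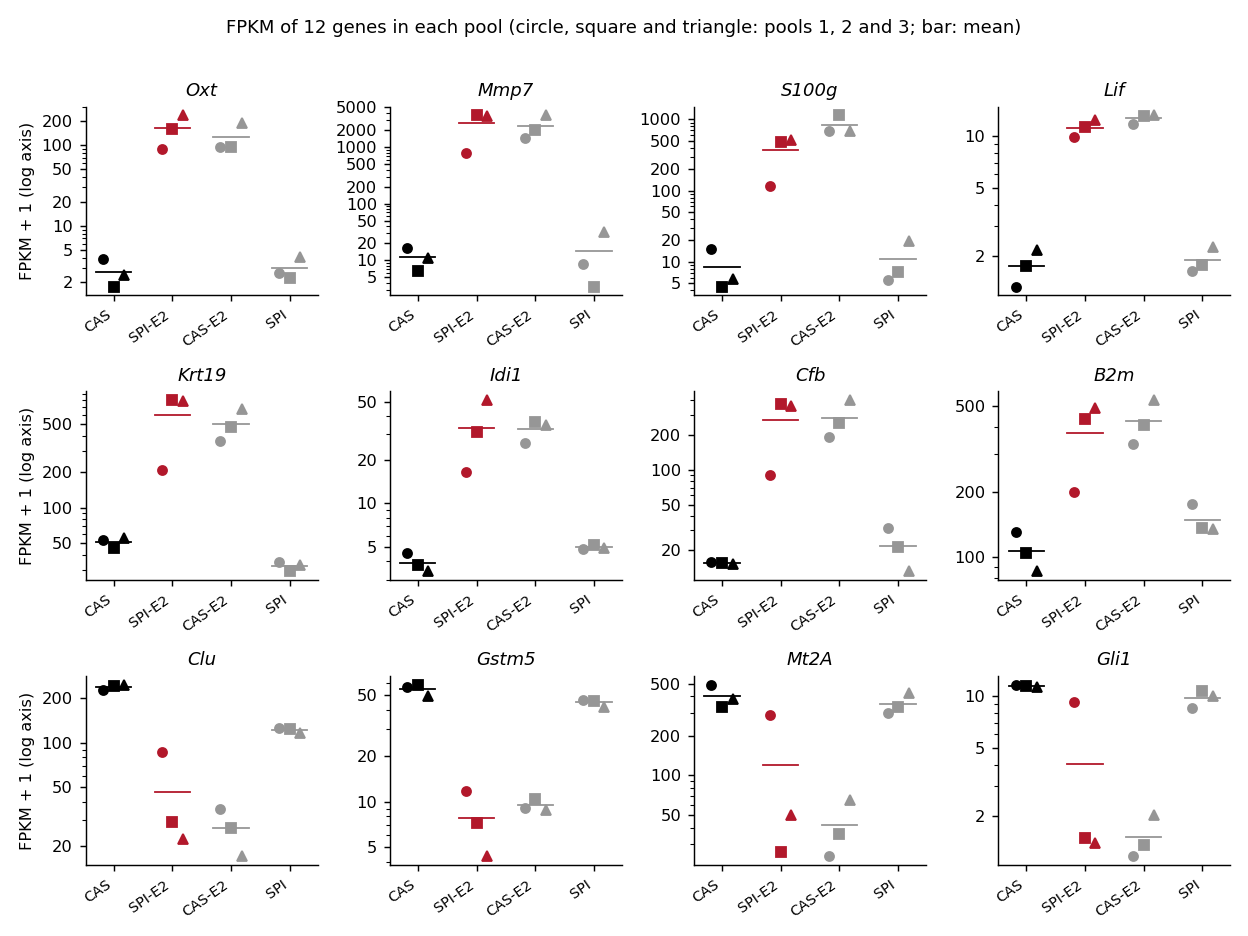
FPKM + 1 (log axis, different for each gene) of 12 genes in each pool of CAS (black), SPI-E2 (red), CAS-E2 and SPI (grey), with circle, square and triangle for pools 1, 2 and 3 and a bar for the mean. For all 12 genes each SPI-E2 pool lies beyond the CAS pools, and SPI-E2 1 (red circle) is the pool of its group nearest to CAS.

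Of 20 tested genes of simple epithelium 12 were higher and 0 lower (median 1.30), 1 of them with no CAS pool at 1 FPKM. The higher count was 17 without SPI-E2 1 and 9 without SPI-E2 2 or SPI-E2 3. Krt19, a keratin of simple epithelia (rn4 chromosome 10, 89080953 to 89085670), had 52.7, 44.9 and 54.7 FPKM in CAS and 207, 802 and 789 in SPI-E2 (3.30 ± 0.42, adjusted p = 0.00042, limma), and Krt8, of the keratin class it pairs with, 47.4, 42.2 and 41.4 against 138, 523 and 500 (2.90 ± 0.41). Prom1, a protein of apical membrane protrusions, rose by 4.09 ± 0.36 and Elf3, an epithelial ETS factor, by 3.89 ± 0.44. Summed over the 25 genes of this list with a row, tested or not, the level was 355 to 377 FPKM in CAS and 761, 2511 and 2453 in SPI-E2. In whole uterus, more epithelial cells and more RNA of these genes per cell cannot be told apart. Cdh1, the epithelial cadherin, was not called (0.94 ± 0.26), as it passed the adjusted p (0.020, limma) but not the 2-fold limit.

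Only 7 of 19 genes of stratified epithelium with a row passed the filter, and 4 were higher, 2 of them with no CAS pool at 1 FPKM, so this count is in part set by the filter. Krt15, a keratin of basal cells, had at most 0.325 FPKM in CAS and 3.90, 9.90 and 13.7 in SPI-E2 (3.01 ± 0.31), and the desmosomal gene Dsc2 rose by 3.43 ± 0.36. Tight junction genes went both ways, 4 higher and 4 lower of 22. Tjp3 (2.09 ± 0.32) and Cldn7 (2.102 ± 0.43) rose, while Tjp1, expressed in many cell types, fell by 1.06 on the log2 scale, and by 0.85 without SPI-E2 2. Leaving out SPI-E2 3 left 2 higher and 2 lower genes of this list, and leaving out SPI-E2 2 left 2 lower ones.

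Of 28 transcription factors known from the uterus 2 were higher and 6 lower, or 4 and 12 when SPI-E2 1 was left out. The lower count was 4 without SPI-E2 2. Klf4 had 9.75, 8.99 and 6.11 FPKM in CAS and 19.3, 52.4 and 61.8 in SPI-E2 (2.16 ± 0.35). Foxa2, which uterine glands need to form, fell from 8.55, 8.18 and 10.9 FPKM to 3.42, 3.93 and 3.18 (-1.17 ± 0.15, adjusted p = 0.00043, limma). Unlike most falling genes, Foxa2 was about as low in SPI-E2 1 as in the other pools. Id2 (-2.03 ± 0.42) and Id3 (-1.71 ± 0.34), inhibitors of basic helix-loop-helix factors, fell too, and Spdef, a factor of secretory cells, rose by 1.75 ± 0.37.

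Of 33 antimicrobial genes with a row 14 passed the filter, and 9 were higher and 0 lower. Of 12 mucin genes 7 passed, and 5 were higher and 0 lower, with 1 lower without CAS 3 or SPI-E2 1. In each of these lists 3 of the higher genes had no CAS pool at 1 FPKM and entered through SPI-E2 alone, so the counts are in part set by the filter. Among the rest, 6 of 11 antimicrobial and 2 of 4 mucin genes were higher. Lpo, an antimicrobial peroxidase of secretions, had 1.53, 0.669 and 0.692 FPKM in CAS and 134, 306 and 405 in SPI-E2 (7.06 ± 0.42, adjusted p = 6.0e-06, limma). Reg3g, a lectin that binds Gram-positive bacteria, was listed at 0 in all CAS pools and had 8.99, 27.2 and 35.7 FPKM in SPI-E2, and its relative Reg3b was listed at 0 and had 2.80, 4.98 and 10.1. Slpi, an inhibitor of leukocyte proteases, rose from at most 7.93 FPKM to 46.7, 68.0 and 231 (4.09 ± 0.68). Galnt3, which starts the sugar chains of mucins, went from at most 0.371 FPKM to 3.39, 9.82 and 12.9 (2.77 ± 0.33), and Clca1 (3.85 ± 0.61) and Clca4 (4.36 ± 0.58), linked to mucus and chloride secretion, rose as well. These lists moved with the epithelial markers above, whose part in the result was not tested.

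Protein folding in the endoplasmic reticulum had smaller changes, 8 higher and 0 lower of 39 genes (median 0.65). Kdelr3, which returns proteins to that compartment, had 10.7, 12.5 and 11.4 FPKM in CAS and 21.6, 29.8 and 28.7 in SPI-E2 (1.13 ± 0.15). The count of this list was 17 without SPI-E2 1, 4 without SPI-E2 3 and 1 without SPI-E2 2. A single gene was lower when CAS 3 or SPI-E2 1 was left out.

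Ion and water transport changed in both directions. Of 35 genes of sodium, chloride and bicarbonate transport 11 were higher and 5 lower, with 3 lower without SPI-E2 3 and 8 without SPI-E2 1. No CAS pool reached 1 FPKM in 2 of the higher genes, and no SPI-E2 pool did in 1 of the lower genes. Cftr, the cyclic AMP-gated chloride channel, had at most 0.358 FPKM in CAS and 5.23, 16.1 and 16.9 in SPI-E2 (3.32 ± 0.31, adjusted p = 7.0e-05, limma). Slc9a3r1, its scaffold protein at the apical membrane, went from 9.59, 8.57 and 9.28 FPKM to 33.1, 94.6 and 99.1 (2.76 ± 0.33). Of the beta subunits of the sodium pump, Atp1b3 rose by 1.40 and Atp1b2 fell by 1.22 on the log2 scale. Carbonic anhydrases also split, with Car9 higher (2.04 ± 0.48) and Car4 lower (-1.25 ± 0.22). Among 6 aquaporins, Aqp3 (1.72 ± 0.29) and Aqp8 (2.36 ± 0.52) were higher, both with no CAS pool at 1 FPKM, and Aqp5 was lower (-1.53 ± 0.45), but the call of Aqp5 ended without any 1 of CAS 1, CAS 2, CAS 3, SPI-E2 2 and SPI-E2 3, with adjusted p from 0.06 to 0.12 (limma).

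Carriers of nutrients included 3 higher and 4 lower genes of 25, with 2 lower without SPI-E2 3. Slc6a14, an amino acid carrier, rose from at most 0.629 FPKM to 6.87, 19.4 and 16.9 (3.27 ± 0.29), Slc16a3, which exports lactate, by 3.61 ± 0.44, and the glucose carrier Slc2a1 by 1.64 ± 0.33. The peptide carrier Slc15a2 (-1.30 ± 0.22) and the glutamate carrier Slc1a3 (-1.54 ± 0.30) fell. Of 12 genes for S100 calcium binders 7 were higher and 0 lower (median 1.37). S100a11 had 202, 188 and 156 FPKM in CAS and 297, 1319 and 957 in SPI-E2 (1.99 ± 0.42), and S100a6 had 291, 174 and 187 against 392, 989 and 820 (1.69 ± 0.33).

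Hedgehog signalling runs from the epithelial ligand Ihh to the stromal receptor Ptch1 and the Gli factors. Of its 13 tested genes 0 were higher and 7 lower (median -1.03). Gli1, itself a target of the pathway, had 10.7, 10.5 and 10.4 FPKM in CAS and 8.22, 0.499 and 0.397 in SPI-E2 (-2.10 ± 0.54). Its adjusted p from limma was 0.061 without SPI-E2 2 and 0.069 without SPI-E2 3. Ptch1 fell from 7.80, 8.98 and 9.67 FPKM to 4.31, 1.61 and 1.52 (-1.58 ± 0.26, adjusted p = 0.0017, limma) and kept its call without any 1 library. Ihh had 2.47, 2.20 and 4.49 FPKM in CAS and 2.41, 0.0497 and 0.141 in SPI-E2, where SPI-E2 1 overlapped CAS. The change of Ihh was -1.30 ± 0.40, and its adjusted p from limma was 0.056 without CAS 1, 0.11 without CAS 3, 0.11 without SPI-E2 2 and 0.12 without SPI-E2 3. The count of lower genes was 10 without SPI-E2 1, 4 without CAS 1, 2 without SPI-E2 2 and 1 without SPI-E2 3.

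Wnt genes had 2 higher and 8 lower members of 41 (median -0.64), and 3 and 16 without SPI-E2 1. The lower count was 6 without SPI-E2 3. The ligand Wnt7b rose from 1.72, 1.43 and 1.01 FPKM to 7.08, 16.2 and 10.2 (2.29 ± 0.25). Among the lower genes were inhibitors that bind Wnt ligands. Wif1 had 4.27, 1.92 and 8.54 FPKM in CAS and 0.484, 0.0527 and 0.0745 in SPI-E2 (-2.15 ± 0.33, adjusted p = 0.0012, limma), Sfrp5 fell by 1.54 and Sfrp2 by 1.75 on the log2 scale. Rspo3, which strengthens Wnt signals through Lgr receptors, fell as well (-1.57 ± 0.27). None of these 5 genes lost its call without any 1 library.

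The insulin-like growth factor axis had 1 higher and 4 lower genes of 14, with 2 higher without CAS 1 or SPI-E2 1. Igfbp2 went from 1.85, 2.05 and 3.32 FPKM to 34.7, 110 and 127, whereas Igfbp3 went from 71.8, 72.8 and 42.7 to 37.0, 6.12 and 5.42 (-2.36 ± 0.52). Irs2, a docking protein of the receptor, fell by 1.496 on the log2 scale. Of 9 genes of the epidermal growth factor family 3 ligands were higher and 0 genes lower, with Btc at 0.904, 0.681 and 1.06 FPKM in CAS and 6.35, 15.2 and 3.42 in SPI-E2 (2.11 ± 0.38) and Hbegf at 1.30 ± 0.30. Genes of TGF-β and BMP signalling had 1 higher, Inhbb, and 7 lower members of 40, and no SPI-E2 pool reached 1 FPKM in 2 of the lower ones. Bmp7 had 13.8, 10.7 and 10.5 FPKM in CAS and 6.68, 2.20 and 1.43 in SPI-E2 (-1.69 ± 0.34), and Smad9, which carries BMP signals to the nucleus, fell by 1.26. The lower count was 12 without SPI-E2 1, 4 without CAS 1, 4 without CAS 2 and 3 without SPI-E2 3. Of 16 Notch genes 1 was lower, against 5 without SPI-E2 1 and 0 without SPI-E2 2 or SPI-E2 3.

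Immediate early genes had 6 higher and 2 lower members of 25, with 0 lower without SPI-E2 3 and 1 without CAS 1 or CAS 2. Fos had 5.04, 3.22 and 3.29 FPKM in CAS and 16.3, 39.3 and 46.8 in SPI-E2 (2.75 ± 0.32, adjusted p = 0.00023, limma), and Junb, which pairs with it in the factor AP-1, 9.69, 8.97 and 9.25 against 14.3, 45.4 and 29.4 (1.44 ± 0.30). The AP-1 letters TGANTCA stand in the promoter of the most strongly raised gene, Mmp7, which is shown for that reason (RefSeq, GRCr8, chr8:13132793-13133042, plus strand, 250 bases before the start, AP-1 letters in capitals):
Mmp7: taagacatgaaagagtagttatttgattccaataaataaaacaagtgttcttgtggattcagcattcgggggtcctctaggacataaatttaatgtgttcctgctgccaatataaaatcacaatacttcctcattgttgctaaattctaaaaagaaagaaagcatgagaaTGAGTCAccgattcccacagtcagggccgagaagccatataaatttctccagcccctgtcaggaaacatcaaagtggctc
The match lies at -80 from the start. On either strand these letters were in 6.34% of all 33469 windows, in 4.43% of the 7086 windows of genes tested, in 11.1% of the 479 windows of higher genes and in 3.90% of the 282 windows of lower genes. None of the 17 immediate early genes with a window had a match. Such a match only describes the letters.

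Cell cycle genes were mostly low. Of 38 tested 6 were higher and 2 lower (median 0.19), with 0 lower without SPI-E2 3 and 1 without SPI-E2 2. The higher count was 9 without SPI-E2 1 and 4 without SPI-E2 2 or SPI-E2 3. Of the 6 higher genes 4 had no CAS pool at 1 FPKM. Among the 32 genes with a pool of each group at that level, 2 were higher. Over all genes tested this was 545 of 9492, a similar share. Cdk1, the mitotic kinase, had 1.23, 0.927 and 1.12 FPKM in CAS and 3.70, 6.37 and 13.1 in SPI-E2 (1.92 ± 0.40), and Rrm2, which makes deoxynucleotides, at most 0.202 against 1.71, 1.95 and 2.71 (1.42 ± 0.19). The inhibitor Cdkn1a rose too, from 3.87, 2.62 and 3.49 FPKM to 11.1, 30.8 and 24.8 (2.32 ± 0.30). Of 49 genes of ribosome biogenesis and tRNA charging 2 were higher (4 without SPI-E2 1), the tRNA synthetases Tars (1.18 ± 0.17) and Wars (1.25 ± 0.25). Both counts lay below the shares over all genes tested, 6.89%, and 9.96% without SPI-E2 1.

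Of 21 genes of cholesterol synthesis and uptake 10 were higher and 0 lower (median 0.93). Idi1, which makes dimethylallyl pyrophosphate (rn4 chromosome 17, 72557196 to 72563149), had 3.57, 2.79 and 2.41 FPKM in CAS and 15.6, 30.2 and 50.5 in SPI-E2 (2.94 ± 0.31, adjusted p = 0.00013, limma). The count of this list lay between 8 and 12 whichever library was left out. Promoters of this pathway often carry a CCAAT box, and the Idi1 window is shown for its pair of them (RefSeq, GRCr8, chr17:66547525-66547774, minus strand, 250 bases before the start, CCAAT or its reverse complement ATTGG in capitals):
Idi1: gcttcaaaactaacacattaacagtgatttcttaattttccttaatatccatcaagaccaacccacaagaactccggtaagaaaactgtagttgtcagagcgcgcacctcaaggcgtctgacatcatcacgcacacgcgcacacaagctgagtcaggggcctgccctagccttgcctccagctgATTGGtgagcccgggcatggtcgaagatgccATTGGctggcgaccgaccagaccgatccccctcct
The boxes begin at -66 and -35. CCAAT on either strand was in 34.0% of all windows, in 35.4% of those of genes tested and in 11 of the 13 windows of this list (84.6%), of which 4 of 5 belong to higher genes and 7 of 8 to genes not called.

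Glycolysis and creatine kinase genes had 9 higher and 0 lower members of 24 (median 0.64), with 1 lower without CAS 3 or SPI-E2 1. The higher count was 12 without SPI-E2 1 and 7 without SPI-E2 3. Ldha, lactate dehydrogenase A, had 60.3, 54.2 and 59.2 FPKM in CAS and 142, 379 and 374 in SPI-E2 (2.21 ± 0.33), and Hk2, the first step of glycolysis, 1.25, 1.66 and 1.10 against 3.54, 8.78 and 9.41 (1.73 ± 0.29). Gapdh, often used as a reference gene, rose by 1.49 ± 0.27, from 94.2, 73.1 and 72.5 FPKM to 137, 270 and 304. Fatty acid synthesis had 1 higher and 1 lower gene of 19, and 3 of each without SPI-E2 1 but 0 of each without CAS 2, SPI-E2 2 or SPI-E2 3, 2 higher and 0 lower without CAS 1, and 0 lower without CAS 3.

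Of 28 glutathione genes 7 were higher and 7 lower. Of the latter 6 were of the mu class, among them Gstm5 as given above, Gstm1 from 82.8, 90.8 and 89.4 FPKM to 40.5, 10.97 and 9.20 (-2.37 ± 0.39) and Gstm7 from 33.3, 29.4 and 40.9 to 15.0, 1.79 and 1.95 (-2.79 ± 0.52). These paralogs share sequence, and reads of 36 bases may be split among them. Gpx2, a glutathione peroxidase of epithelia, rose from 12.3, 8.91 and 9.94 FPKM to 39.6, 169 and 165 (3.21 ± 0.55), and Gclm, a subunit of the enzyme that starts glutathione synthesis, from 5.54, 3.94 and 5.39 to 10.3, 14.5 and 21.5 (1.42 ± 0.22). The higher count was 3 without SPI-E2 2 and 4 without SPI-E2 3.

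Metallothioneins, small proteins that bind zinc and copper, were among the largest falls. Mt1a had 447, 370 and 401 FPKM in CAS and 182, 38.3 and 60.7 in SPI-E2 (-2.41 ± 0.50, adjusted p = 0.0053, limma), and Mt2A 490, 331 and 383 against 287, 25.3 and 48.7 (-2.46 ± 0.66). The adjusted p of Mt2A was 0.056 without CAS 1, 0.065 without SPI-E2 2 and 0.074 without SPI-E2 3. Of 27 genes of metallothioneins and metal carriers 1 was higher and 3 lower. The lower count was 5 without SPI-E2 1 and 1 without CAS 1 or SPI-E2 3, and the higher count 0 without any 1 library other than SPI-E2 1. The Mt2A promoter is shown for the letters TGCNCNC, a looser form of the metal response element core TGCRCNC, where R is A or G (RefSeq, GRCr8, chr19:10838709-10838958, minus strand, 250 bases before the start, matches to TGCNCNC on either strand in capitals):
Mt2A: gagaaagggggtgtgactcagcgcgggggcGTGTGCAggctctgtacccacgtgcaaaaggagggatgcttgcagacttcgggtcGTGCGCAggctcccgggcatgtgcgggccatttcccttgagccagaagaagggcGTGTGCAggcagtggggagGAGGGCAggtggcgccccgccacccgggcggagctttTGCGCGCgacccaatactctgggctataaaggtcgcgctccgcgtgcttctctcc
There are 5 matches to the looser form in this window. The one at -92, GAGGGCA, reads TGCCCTC on the other strand and does not match the core. The looser letters TGCNCNC, which are short, were in 43.4% of all windows, in 54.0% of those of genes tested, in 61.0% of those of lower genes and in 52.0% of those of higher genes.

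Steroid, retinoid and prostaglandin metabolism held single strong changes. Hsd11b2, which inactivates glucocorticoids, had 14.01, 11.8 and 12.6 FPKM in CAS and 27.3, 162 and 82.8 in SPI-E2 (2.40 ± 0.54). Ugt2b10, a glucuronosyltransferase of a family with many like copies, fell from 6.07, 5.98 and 7.10 FPKM to 0.966, 0.221 and 0.416 (-2.29 ± 0.22) and had 1.697, 1.13 and 0.740 in SPI. Of 20 retinoid genes 5 were higher and 1 lower, with 4 lower without SPI-E2 1 and 2 without CAS 1, CAS 3 or SPI-E2 2. Rbp2, a cellular retinol-binding protein, was listed at 0 in all CAS pools and had 5.03, 16.7 and 23.9 FPKM in SPI-E2, Dhrs9, a retinol dehydrogenase, rose by 3.79 ± 0.35, and Dhrs3, which turns retinal back into retinol, fell by 1.33. Nqo1, a quinone reductase, was the only gene called of 5 genes of aryl hydrocarbon signalling, with 4.29, 3.07 and 3.89 FPKM in CAS and 13.1, 12.5 and 24.1 in SPI-E2 (1.83 ± 0.23). Of 15 prostaglandin genes 3 were higher and 2 lower, with 1 higher without SPI-E2 2 and 1 lower without CAS 1 or SPI-E2 3.

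Antigen presentation had the most calls of the immune groups, 15 higher and 0 lower of 35 genes (median 0.81). B2m, the light chain of class I molecules (rn4 chromosome 3, 108927906 to 108933930), had 130, 104 and 84.9 FPKM in CAS and 199, 435 and 486 in SPI-E2 (1.72 ± 0.31, adjusted p = 0.0029, limma). The immunoproteasome subunits Psmb10 (1.58 ± 0.30) and Psmb8 (1.64 ± 0.39) and the loading factor Tapbp (1.42 ± 0.29) rose with it. Class I heavy chains such as RT1-A3 (1.86 ± 0.30) are near-identical copies and their values are uncertain. The count was 8 without CAS 3, 8 without SPI-E2 2 and 8 without SPI-E2 3. Of 45 interferon-induced genes 12 were higher and 0 lower (median 0.62), with 18 higher without SPI-E2 1, 3 without SPI-E2 2, 4 without SPI-E2 3, 5 without CAS 3 (where 1 was lower) and 7 without CAS 2. Isg15, a ubiquitin-like protein, had 13.7, 9.91 and 10.6 FPKM in CAS and 29.6, 73.2 and 53.7 in SPI-E2 (2.02 ± 0.37), and Parp9 6.51 to 6.999 against 13.8, 28.9 and 28.8 (1.61 ± 0.24). The B2m promoter is shown for the interferon-stimulated response element letters, GAAA, any 2 bases and GAAA again (RefSeq, GRCr8, chr3:129549080-129549329, plus strand, 250 bases before the start, match in capitals):
B2m: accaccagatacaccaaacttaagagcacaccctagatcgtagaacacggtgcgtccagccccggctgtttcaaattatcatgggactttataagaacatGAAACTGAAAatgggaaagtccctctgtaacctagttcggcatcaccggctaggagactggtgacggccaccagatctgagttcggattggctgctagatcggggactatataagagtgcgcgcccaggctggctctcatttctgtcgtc
This match is at -150. On either strand the letters were in 3.41% of all windows, 2.58% of those of genes tested, 4.18% of those of higher genes, 18 of 32 windows of interferon-induced genes (56.2%) and 9 of 32 of antigen presentation (28.1%). Within the interferon list, 4 of 8 windows of higher genes and 14 of 24 of genes not called held a match.

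Complement genes had 7 higher members of 20, with Clu as the single lower one. The higher count was 10 without SPI-E2 1 and 5 without CAS 1, CAS 2, CAS 3, SPI-E2 2 or SPI-E2 3. Cfb, a protease of the alternative pathway (rn4 chromosome 20, 4072124 to 4077801), had 14.8, 14.7 and 14.3 FPKM in CAS and 89.6, 367 and 358 in SPI-E2 (3.88 ± 0.49). Cd55, an inhibitor of complement on cell surfaces, rose as well, from at most 8.31 FPKM to 70.8, 152 and 99.9 (4.20 ± 0.31). Of 27 chemokine genes 4 were higher, 1 of them with no CAS pool at 1 FPKM, and 0 lower, with 1 lower without SPI-E2 1. Cxcl5, which attracts neutrophils, had at most 0.830 FPKM in CAS and 11.4, 17.9 and 57.5 in SPI-E2 (4.08 ± 0.52), and Ccl11, which attracts eosinophils, 2.08, 1.18 and 0.609 against 7.13, 122 and 41.8 (3.99 ± 0.78).

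Of 18 macrophage genes 3 were higher and 0 lower. The higher count was 6 without CAS 1, SPI-E2 1 or SPI-E2 3 and 2 without CAS 2, CAS 3 or SPI-E2 2. The summed level of the 24 macrophage genes with a row was 182 to 214 FPKM in CAS and 263 to 472 in SPI-E2. Cd68 rose from 6.33, 4.68 and 2.68 FPKM to 12.6, 22.6 and 23.0 (1.88 ± 0.31), whereas Csf1r was not called (-0.12). Of 27 genes of granulocytes and mast cells 24 were too low to test, so little can be read from the remaining 3, which were higher. S100a9 (2.38 ± 0.53) and Kit (1.47 ± 0.30) were among them, and the summed level of the list was 7.39 to 12.6 FPKM in CAS and 15.6 to 33.4 in SPI-E2. Of 6 lymphocyte genes none was called. The part of these cells in the immune results was not tested.

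Of 24 genes of stromal fibroblasts 8 were lower and 1, S100a4, was higher (median -0.87), and 17 were lower without SPI-E2 1 but 5 without CAS 1, 3 without CAS 2, 4 without SPI-E2 2 and 1 without SPI-E2 3. Thy1, a surface protein of fibroblasts, had 22.0, 15.9 and 16.5 FPKM in CAS and 12.7, 4.11 and 3.23 in SPI-E2 (-1.51 ± 0.34, adjusted p = 0.0081, limma). Pdgfra, a receptor for platelet-derived growth factor, fell from 12.7, 12.2 and 8.43 FPKM to 6.86, 3.76 and 1.82 (-1.34 ± 0.33), by 0.96 without SPI-E2 3. The summed level of the list was 1065 to 1395 FPKM in CAS and 1048, 686 and 491 in SPI-E2. Its part in the falls of hedgehog, Wnt and BMP genes was not tested. Of 15 collagens 1 was lower, 6 without SPI-E2 1 and 0 without CAS 3 or SPI-E2 3. Of 24 matrix proteases and inhibitors 6 were higher and 3 lower, with 1 lower without CAS 2 or SPI-E2 3. Timp1, an inhibitor of metalloproteases, rose from 16.01, 12.3 and 14.1 FPKM to 33.9, 97.2 and 87.9 (2.16 ± 0.32). The laminin chain Lamb3 rose (1.96 ± 0.36), while Lamc3 fell. Ctse, an aspartic protease, was the largest rise of 4 among 14 cathepsins and their inhibitors (2.36 ± 0.35). In 2 of these 4 genes no CAS pool reached 1 FPKM.

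Of 20 smooth muscle genes 1 was lower, the coactivator Myocd at -1.001 ± 0.26 (2 lower without SPI-E2 1), which was not called without CAS 2 (-0.98), SPI-E2 2 (-0.81) or SPI-E2 3 (-0.84). Summed over the 23 genes of this list with a row, levels were 4972 to 5585 FPKM in CAS and 5072 to 7096 in SPI-E2. Of 19 endothelial genes 3 were lower, 5 without SPI-E2 1 and 1 without SPI-E2 3. Cdh5, the endothelial cadherin, had 18.7, 21.8 and 17.2 FPKM in CAS and 11.5, 5.07 and 3.65 in SPI-E2 (-1.51 ± 0.32), while Pecam1 was not called (-0.40).

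Genes of neighbouring tissues were mostly not called. Adipoq, the fat cell hormone adiponectin, had 26.2, 13.4 and 14.5 FPKM in CAS and 77.6, 259 and 229 in SPI-E2 (3.20 ± 0.62, adjusted p = 0.0040, limma). The other 14 tested fat cell genes were not called, and Plin1 (3.43, 2.75 and 3.27 against 3.09, 1.42 and 1.62) and Fabp4 (57.6, 21.9 and 26.6 against 60.1, 15.9 and 64.3) overlapped between the groups. The summed fat cell list was 145 to 288 FPKM in CAS and 291, 379 and 453 in SPI-E2. Adipoq is part of these sums, with the 77.6, 259 and 229 FPKM given above. They therefore do not show a rise of the other fat cell genes. Liver genes differed between pools within both groups, with Alb at 18.8, 80.7 and 173 FPKM in CAS and 6.23, 30.02 and 74.1 in SPI-E2, and none of 20 was called. Of 6 skeletal muscle genes 2 were lower, Tnni2 (-1.81 ± 0.43) and Tnnc2 (-2.40 ± 0.79), and Tnnc2 lost its call without any 1 of 7 libraries (CAS 1, CAS 2, CAS 3, SPI-E2 2, SPI-E2 3, CAS-E2 2 and SPI 2), with adjusted p of 0.053 to 0.17 (limma). Upk1b, a uroplakin, fell from 40.2, 37.7 and 40.6 FPKM to 17.6, 13.3 and 8.89 (-1.55 ± 0.25). None of 4 red cell genes was called.

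**Figure D5:**
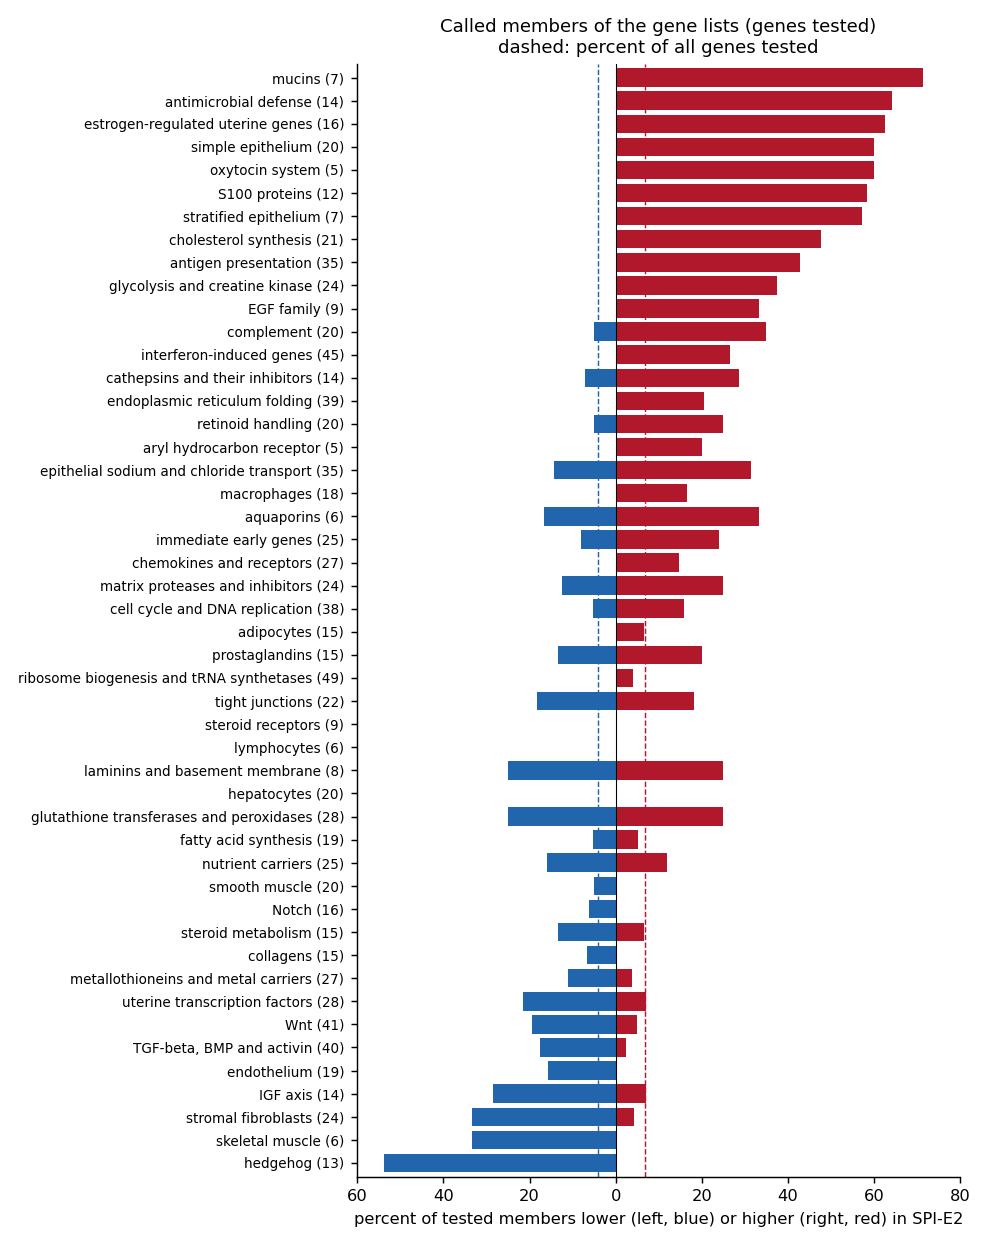
Share of the tested members of each gene list (number tested in parentheses, lists with at least 5) that were higher (red, right) or lower (blue, left) in SPI-E2 than in CAS, in percent. Dashed lines mark the shares over all 9818 genes, 6.89% and 4.06%, and mucins and hedgehog genes stand at the ends.

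SPI-E2 differed from CAS-E2, which received the same hormone on the casein diet, in 1 gene (0.0102%) in the same fit, and 558 genes had an unadjusted p under 0.05 from limma. That gene was Fchsd1, a protein of membrane and actin dynamics, with 3.15, 3.996 and 3.72 FPKM in SPI-E2 and 1.02, 1.02 and 1.38 in CAS-E2 (1.11, adjusted p = 0.034, limma), while CAS had 2.02, 2.34 and 1.703. Next by p came Pla2g7 and Sgk1, lower in SPI-E2 than in CAS-E2 by -1.15 and -0.76, and Nqo1, higher by 1.14, with mean levels of 16.6 FPKM in SPI-E2 and 6.69 in CAS-E2, all with an adjusted p of 0.27. Against SPI, which ate soy without hormone, SPI-E2 had 829 higher (8.44%) and 183 lower genes (1.86%). SPI against CAS had 0 higher and 2 lower genes (0.0204%), Mln and Ugt2b10, and 1300 genes with an unadjusted p under 0.05. CAS-E2 against CAS had 764 higher (7.78%) and 648 lower genes (6.6%). These comparisons share libraries with the one above. The E2 effect on soy minus that on casein passed the adjusted p in 0 of 9818 genes (limma, smallest adjusted p = 0.063), with 1499 genes at an unadjusted p under 0.05.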

How the data were processed

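Polyadenylated RNA of 12 uterine pools, 3 per group, was sequenced as single reads of 36 bases with an unstranded kit, so overlapping antisense genes cannot be separated. Per the study's methods and processing notes, the authors aligned reads to rn4 with TopHat2 2.0.9 and Bowtie2 2.1.0 after CASAVA 1.7 and deposited FPKM per transcript from Cufflinks 2.1.1. The deposited FPKM values were summed per gene symbol, which gave 16493 symbols from 17179 transcripts (113 on more than 1 chromosome name). Genes reaching 1 FPKM in 3 of the 6 SPI-E2 and CAS libraries were kept, and log2(FPKM + 1) was fitted with limma 3.58.1 (R 4.3.3, variance trend) over all 12 libraries and 4 groups, with no covariate. P-values were adjusted by Benjamini-Hochberg over 9818 genes, and a call also needed a 2-fold change. The study's own test, which needs reads, was not repeated. Depth came from coverage and FPKM; no count intervals are given. Python 3.11.15, pandas 2.3.3, numpy 2.4.6 and matplotlib 3.10.9 handled tables and plots.

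Named genes were the 25 largest rises and falls with pools that did not overlap, the called members of 52 lists with the smallest adjusted p (up to 6) or largest change (up to 4), fixed hormone genes and cell type markers, and the 10 genes with the smallest adjusted p against CAS-E2. Lnpep, Avpr1a and Atp1b2 were added after their values were seen. A few genes within this rule are left unreported. Members and lists were chosen with earlier results of these data known. Promoter windows were RefSeq's (GRCr8), the 250 bases before the start, matched by symbol for 7086 genes tested.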

Additional observations from a re-analysis of the deposited data

How the results depend on the processing

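Over 26 alternative settings no named gene that was called changed its direction. Named genes that were not called were not checked for this. The 676 higher genes became 1431 with no fold limit. The 399 lower genes became 711 with a pseudocount of 0.1, 241 with 1 FPKM required in all 6 libraries, 648 with array weights, 717 with the 2-fold limit on mean FPKM and 1526 with no fold limit. Leaving out 1 library gave 495 to 978 higher and 180 to 739 lower genes. Of 240 named genes that were called, 156 were called with 1 FPKM in all 6 libraries, where fewer genes are tested, and 169 under every setting that kept them. Of 274 called list members, 178 to 273 were called without 1 library. Median-ratio scaling gave 705 higher and 346 lower genes, quantile normalization 614 and 419. The cause of these shifts was not tested.

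With the replicate number as a block there were 676 higher and 409 lower genes, 239 of the 240 named genes and 271 of the 274 list members. Deviations of same-numbered CAS and SPI-E2 pools had correlations of 0.06, -0.02 and -0.00, so the numbers were not taken as a pairing, although the read statistics of CAS and SPI-E2 resembled each other by number. The 3 pools of each group, with SPI-E2 1 apart from the others, limit the precision, and at low FPKM the added 1 hides changes.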
